A study of Mus musculus with 32 samples.

Results

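The 8 genes described here are Igf1, its receptor Igf1r and 6 IGF-binding protein genes, Igfbp2 to Igfbp7. They were chosen by symbol, as 8 of the 31053 genes listed in each matrix, and their unique molecular identifier (UMI) counts were followed over 7 classes of cells in 16 pools. The cells were BMSC-OBs, that is, bone marrow-derived stromal cells grown under osteogenic condition, from 77 Diversity Outbred mice, an outbred population in which each animal carries a different mixture of founder genomes. The cultures received ascorbic acid, β-glycerophosphate and dexamethasone for 10 days after 3 days of growth to confluence, and all samples share this treatment. Cells of 4 or 5 mice were mixed in each pool, so a pool value is a mean over several genotypes, and the labels give no treatment contrast. The comparisons are therefore between cell classes of the same pools.

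Insulin-like growth factor 1 (IGF1) is a secreted peptide that acts through IGF1R, a receptor tyrosine kinase that signals through insulin receptor substrates, PI3 kinase and AKT. IGF-binding proteins hold IGFs outside the cell. They prolong the life of the ligand and restrict or deliver it to the receptor, and proteases such as pregnancy-associated plasma protein A (PAPP-A) release it again. In bone, IGF1 is known as a growth factor for osteoblasts and is stored in the matrix with binding proteins.

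Each of 83906 cells was compared with 15 lists of marker genes, none of which holds any of the 8 genes. The lists of the mesenchymal classes were taken from the study's markers, found with these data. Igfbp4, a MALP marker of the study, was left out of them, so its high level in MALP-like cells was known beforehand. In all, 56289 cells (67.1%) matched a list, and 51014 of these fell into the 7 classes used here. These were 10379 cells like late mesenchymal progenitors (LMP-like), 8344 like osteoblast progenitors (OBP-like), 5583 and 4364 like the osteoblast groups OB1 and OB2, 4108 osteocyte-like (Ocy-like), 8066 like marrow adipogenic lineage progenitors (MALP-like) and 10170 macrophage-like cells. The genes that led in each class are mostly the markers used to form it, so that they lead follows from the gating and is no check of the names. Tagln, Aspn and Acta2 led in LMP-like cells, Smpd3 and Ifitm5 in OBP-like cells, Mepe and Bglap in OB1-like cells, Ero1l and Egln3 in OB2-like cells, Sost and Phex in Ocy-like cells, Adipoq and Lpl in MALP-like cells and C1qa and Lyz2 in macrophage-like cells. Among the 7 classes, OB1-like and Ocy-like cells overlapped most in marker expression, although their lists share no gene. Of the 10 leading genes of OB1-like cells, 2 were Ocy markers. A pool held 3460 to 9429 barcodes and 53990642 to 100777353 UMIs, with a median of 2782 (pool 13) to 15273 UMIs per kept cell. Levels are given as UMIs per 10000 UMIs of a class in a pool, and OB2-like cells had enough cells (at least 20) in 14 of the 16 pools. From each droplet 3′ ends were counted, and levels are compared between classes and not between genes.

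On the GRCm38 genome, Igfbp2 (ENSMUSG00000039323, chr1:72824503-72852474, plus strand) and Igfbp5 (ENSMUSG00000026185, chr1:72857932-72874884, minus strand) are neighbours separated by 5457 bases. Igfbp3 (ENSMUSG00000020427, chr11:7206086-7213923, minus strand) and Igfbp4 (ENSMUSG00000017493, chr11:99041244-99054392, plus strand) lie far apart on chromosome 11. The others are Igf1 (ENSMUSG00000020053, chr10:87858265-87937042, plus strand), Igf1r (ENSMUSG00000005533, chr7:67952827-68233668, plus strand), Igfbp6 (ENSMUSG00000023046, chr15:102144362-102149511, plus strand) and Igfbp7 (ENSMUSG00000036256, chr5:77349240-77408041, minus strand). Igfbp3, Igfbp4 and Igfbp5 are the members with a TATA-like motif in the 100 bases before a RefSeq start site and are shown for it, a choice made after their values were seen. They are 3 of the 5 members that were higher in MALP-like than in LMP-like cells, and the other 2, Igf1 and Igfbp7, had no such motif in this window. The bases before these starts, from RefSeq on GRCm38.p6, are chr11:7213924-7214023 (minus strand) for Igfbp3, chr11:99041144-99041243 (plus strand) for Igfbp4 and chr1:72874866-72874965 (minus strand) for Igfbp5. Each reads 5′ to 3′ toward the gene, with the motif in capitals.
Igfbp3: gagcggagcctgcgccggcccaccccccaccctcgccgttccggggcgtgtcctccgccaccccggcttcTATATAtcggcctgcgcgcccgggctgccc
Igfbp4: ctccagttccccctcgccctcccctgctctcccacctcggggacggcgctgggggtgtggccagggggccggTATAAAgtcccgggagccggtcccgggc
Igfbp5: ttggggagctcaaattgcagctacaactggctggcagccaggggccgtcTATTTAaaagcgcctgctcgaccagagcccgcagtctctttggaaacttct
The first base of the motif lies 30 bases before the start of Igfbp3 and 28 before that of Igfbp4. It lies 51 bases before the RefSeq start of Igfbp5, which is 19 bases downstream of the GENCODE start of that gene. The RefSeq start of Igf1, where no motif was found, is 2846 bases inside its GENCODE gene. The bases before the GENCODE start of Igf1 were not searched. Both strands of the 100 bases were searched for these 3 motifs, of which at least 1 was in 3 of the 9 promoter entries of the 8 genes and in 10.6% of 32851 promoters of the same length. The form TATAAA (Igfbp4) was in 5.56% of promoters. The form TATATA (Igfbp3), which is its own reverse complement, was in 2.19%. The form TATTTA (Igfbp5) was in 4.74%, and a promoter can hold several forms, which may overlap. These matches describe letters, not sites.

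Among the 7 classes, the 8 genes differed in where their levels were highest. Igf1 was highest in macrophage-like cells, Igf1r in OB2-like and LMP-like cells, Igfbp3, Igfbp4, Igfbp5 and Igfbp7 in MALP-like cells, and Igfbp2 and Igfbp6 in LMP-like cells. Igfbp3 was the most restricted by share. MALP-like cells, at 15.7% of all cells in the 7 classes, gave 95.2% ± 2.11 (SD, n = 16 pools) of the Igfbp3 UMIs. Macrophage-like cells, at 20.4%, gave 74.3% ± 11.9 of the Igf1 UMIs. LMP-like cells gave 77.4% ± 11.3 of the Igfbp2 UMIs. These shares depend on the cells captured and on the UMIs per cell as well as on the level.

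**Figure D1:**
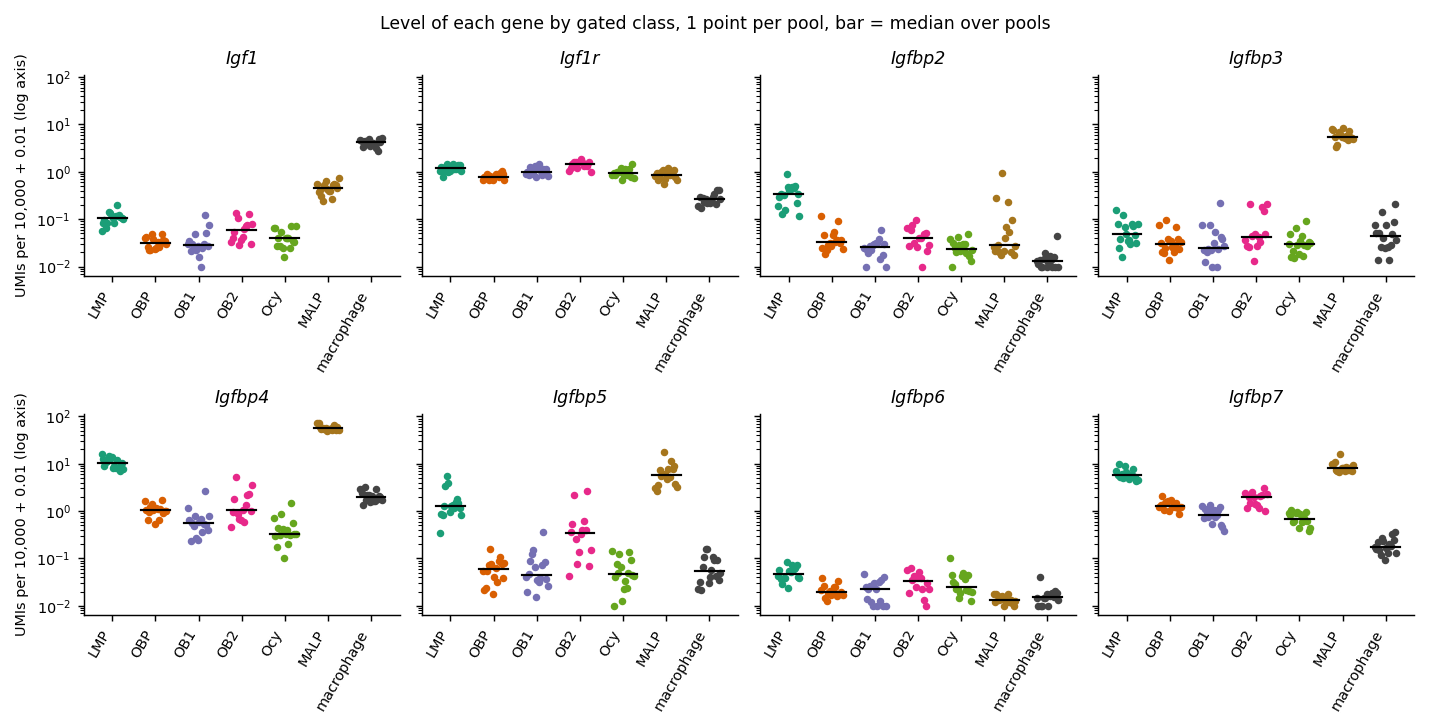
Level of each of the 8 genes in UMIs per 10000 plus 0.01 (log axis) in the 7 classes, with 1 point per pool and a bar at the median over pools. Igfbp3 and Igfbp4 in MALP-like cells and Igf1 in macrophage-like cells stand above every pool of every other class, while the Igf1r points of the mesenchymal classes overlap.

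Sums of UMIs per pool and class were fitted with edgeR's quasi-likelihood test over 12481 genes, with the pool as a block, and p-values were adjusted over all genes by the Benjamini-Hochberg method. In MALP-like against LMP-like cells, the comparison of adipogenic progenitors with the mesenchymal progenitors, 5 members were higher and 3 lower, while 36.8% of all genes tested were higher and 33.7% lower. In OBP-like against LMP-like cells, all 8 members were lower and none higher, where 38.8% of all genes were lower and 33.0% higher. The median log2 difference of the members was 1.07 in the first and -1.85 in the second, against 0.03 and -0.04 over all genes. In OB1-like against OBP-like cells 1 member was higher and 2 were lower (24.0% and 24.9% of all genes), and in Ocy-like against OB1-like cells none was higher and 3 were lower (17.5% and 21.8%). In macrophage-like against MALP-like cells 1 member was higher and 6 were lower (39.9% and 44.4%). The shares of all genes are large because a comparison of cell types over 16 pools calls many genes, so a call alone says little about a member and its size is given below. The comparisons share classes and are not independent of each other.

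Scaling by trimmed means (TMM) and scaling by library size alone placed the median gene differently, by 0.22, -0.31, -0.16, 0.15 and -0.37 on the log2 scale in the order above (library size minus TMM). Of the genes called, 52.2%, 45.9%, 49.0%, 44.5% and 47.3% were higher with TMM and 72.3%, 23.1%, 24.5%, 74.3% and 31.9% with library size alone. The levels in UMIs per 10000 follow the library size scale, whereas the log2 differences below follow TMM. No called member changed direction between the scalings, and the call for Igf1r in Ocy-like against OB1-like cells was lost (adjusted p = 0.224 with library size alone, edgeR). One further setting read the limits of 400 and 6200 as UMIs per cell and not genes per cell. It kept shallow cells and left out those above 6200 UMIs, whereas LMP-like cells otherwise had a median of 16951. This setting is called the UMI limits below and is given where it ended a call or moved a fold by over 1.5 times. With it 6 members were tested in the fit, all but Igfbp2 and Igfbp6. Of these 6, 3 (Igfbp4, Igfbp5 and Igfbp7) were called lower in OBP-like than in LMP-like cells. Igf1r in Ocy-like against OB1-like cells was at 0.07 with it and not called.

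**Figure D2:**
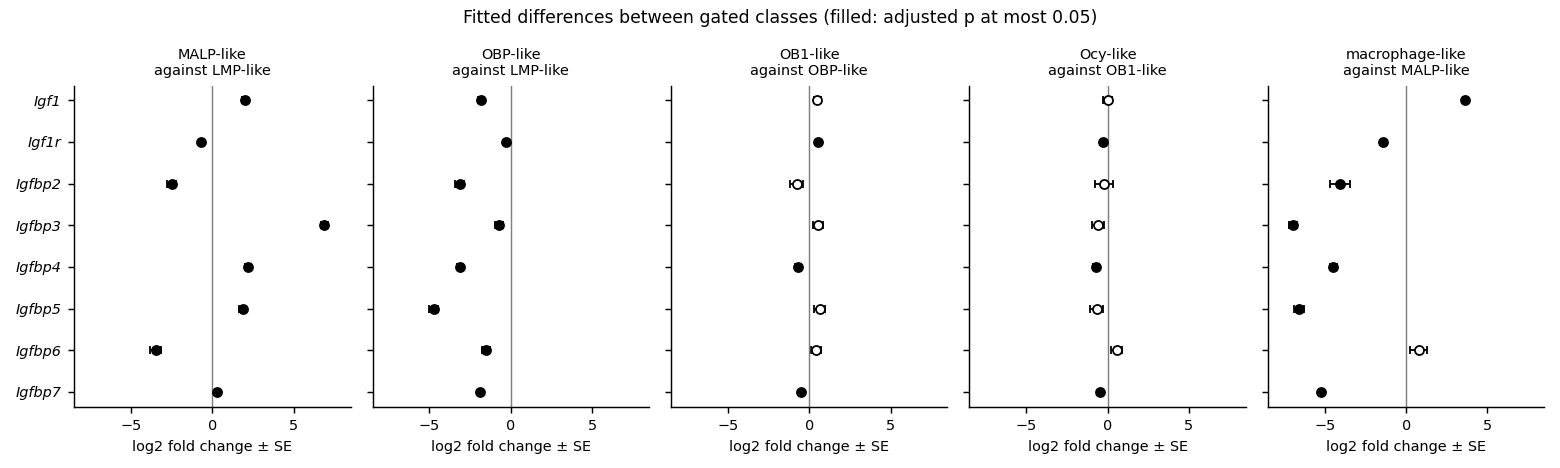
Fitted log2 fold change ± SE of the 8 genes in the 5 comparisons (edgeR, pool as a block), with filled points at an adjusted p of at most 0.05. The largest values are those of Igfbp3, 6.88 in MALP-like against LMP-like and -6.96 in macrophage-like against MALP-like cells, and the 8 points of OBP-like against LMP-like cells all lie below 0.

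Igf1, the ligand, had its highest level in macrophage-like cells. The lowest, median and highest pools were at 2.78, 4.18 and 5.17 UMIs per 10000 in macrophage-like cells, at 0.227, 0.441 and 0.731 in MALP-like cells and at 0.0458, 0.0966 and 0.185 in LMP-like cells. No pool of one of these 3 classes overlapped the pools of another. The fitted log2 difference was 3.61 ± 0.134 (SE) for macrophage-like against MALP-like cells (higher in 16 of 16 pools, adjusted p = 3.62e-45) and 1.98 ± 0.139 for MALP-like against LMP-like cells (16 of 16, adjusted p = 4.73e-24), the second of which was 0.61 with the UMI limits (adjusted p = 0.0265). Igf1 was lower in OBP-like than in LMP-like cells by a log2 difference of -1.82 ± 0.179 (adjusted p = 3.83e-16), which was -1.05 with doublets kept and was not called with the UMI limits (-0.59, adjusted p = 0.146, edgeR). In OBP-like, OB1-like and Ocy-like cells it stayed near its level in T-cell-like and B-cell-like cells, combined as lymphocyte-like cells. These serve below as a background for free RNA, but whether their UMIs are free RNA was not tested. In the 10 pools with at least 20 of them, the level was 0.0484 in lymphocyte-like cells, against 0.0218 in OBP-like, 0.0247 in OB1-like and 0.0265 in Ocy-like cells. It was 0.0856 in T-cell-like cells of 4 pools and 0.0228 in B-cell-like cells of 6. Per droplet the mean was 0.0426 UMIs in lymphocyte-like cells. It was 0.0482, 0.0425 and 0.0377 in OBP-like, OB1-like and Ocy-like cells, which were higher in 7, 5 and 5 of 10 pools. Igf1 was therefore not clearly above lymphocyte-like cells there. OB2-like cells were a little higher, at a level of 0.0619 and 0.0992 UMIs per droplet, each above the lymphocyte-like value in 8 of 10 pools.

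Igf1r, the receptor, was present in every mesenchymal class, at means that ran from 0.787 in OBP-like to 1.42 in OB2-like cells. They were 1.42 ± 0.255 (SD, n = 14) in OB2-like, 1.18 ± 0.2 (n = 16) in LMP-like, 1.04 ± 0.201 in OB1-like, 0.955 ± 0.192 in Ocy-like, 0.861 ± 0.176 in MALP-like and 0.787 ± 0.112 in OBP-like cells. By exact sign-flip permutation tests of paired log2 levels, 2-sided and adjusted over the 48 neighbouring pairs of all members, OB2-like cells were above LMP-like cells (adjusted p = 0.00195) and LMP-like above OB1-like cells (adjusted p = 0.0468). The first turned with the UMI limits (log2 difference -0.12, adjusted p = 0.263, exact permutation test), and the second was not called under 8 of 9 other settings (adjusted p = 0.0518 to 0.517, exact permutation tests). The next 3 neighbours, from OB1-like down to OBP-like cells, did not differ beyond their spread (adjusted p = 0.0852, 0.218 and 0.152). Macrophage-like cells were lowest at 0.259 ± 0.0716, below every pool of OBP-like cells. In the 10 pools with lymphocyte-like cells, the macrophage-like level of 0.282 stood beside 0.297 in lymphocyte-like cells. In the fit, Igf1r was lower in MALP-like than in LMP-like cells (-0.68 ± 0.071, 16 of 16 pools, adjusted p = 1.11e-14), lower in OBP-like than in LMP-like cells (-0.27 ± 0.0697, 16 of 16, adjusted p = 0.000369) and higher in OB1-like than in OBP-like cells (0.54 ± 0.0722, 15 of 16, adjusted p = 5.48e-10). With the UMI limits the last 2 were not called (-0.17, adjusted p = 0.39, and 0.28, adjusted p = 0.38, edgeR). Unlike the permutation test, the fit called Igf1r lower in Ocy-like than in OB1-like cells (-0.26 ± 0.0734, 12 of 16 pools, adjusted p = 0.0027, edgeR). That call was lost with library size alone and with the UMI limits.

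Igfbp4, which encodes a binding protein known as an inhibitor of IGF action and a substrate of PAPP-A, was high in MALP-like cells in every pool. The lowest, median and highest pools were at 49.6, 56.2 and 72.4 UMIs per 10000 in MALP-like cells and at 7.08, 10.5 and 16.3 in LMP-like cells. The classes did not overlap, and the fitted log2 difference was 2.21 ± 0.176 (16 of 16 pools, adjusted p = 7.18e-21). In OBP-like cells the pools ran from 0.526 to 1.73 with a median of 1.04, which was lower than in LMP-like cells by a log2 difference of -3.1 ± 0.184 (16 of 16 pools, adjusted p = 6.26e-29), or -1.54 with the UMI limits. It was lower again in OB1-like than in OBP-like cells (-0.67 ± 0.183, adjusted p = 0.00128), a call lost with no block (-0.52, adjusted p = 0.0537) and with doublets kept (-0.35, adjusted p = 0.0831), and in Ocy-like than in OB1-like cells (-0.73 ± 0.192, adjusted p = 0.00119). Neither was called with the UMI limits (-0.13, adjusted p = 0.904, and -0.60, adjusted p = 0.188, edgeR). Lymphocyte-like cells of 10 pools had a mean level of 1.58 (median 0.879) and a mean of 1.42 UMIs per droplet (median 0.726). OB1-like and Ocy-like cells were below both means, at levels of 0.519 and 0.399 and at 0.859 and 0.601 UMIs per droplet. Per droplet they were higher than lymphocyte-like cells in 5 and 3 of 10 pools. OBP-like cells were below the mean level (1.03) and above the mean per droplet (2.24, higher in 7 of 10 pools). Macrophage-like cells were at 2.13 in the same pools, with 0.987 UMIs per droplet. The 2 parts of the lymphocyte-like cells differed, with a mean level of 2.98 in T-cell-like cells of 4 pools and 1.01 in B-cell-like cells of 6.

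Igfbp3, whose product is the main IGF carrier in the circulation, set MALP-like cells apart from the other 6 classes. The lowest, median and highest pools of MALP-like cells were at 3.36, 5.53 and 8.37 UMIs per 10000, and no pool of the other 6 classes exceeded 0.206. The fitted log2 difference to LMP-like cells was 6.88 ± 0.211 (16 of 16 pools, adjusted p = 9.74e-51), or 5.31 with the UMI limits, and that of macrophage-like to MALP-like cells was -6.96 ± 0.24 (16 of 16, adjusted p = 1.15e-47), or -6.20 with doublets kept. Outside MALP-like cells the class means were between 0.0246 and 0.0686, beside a mean of 0.0753 and a median of 0.0398 in the lymphocyte-like cells of 10 pools. The mean was 0.21 in T-cell-like cells of 4 pools and 0.0326 in B-cell-like cells of 6. Among the neighbouring pairs in the order of levels, the difference from MALP-like to OB2-like cells was the one that passed (adjusted p = 0.000451, exact permutation test over 14 pools). The lower level in OBP-like than in LMP-like cells (-0.73 ± 0.254, adjusted p = 0.0081, edgeR) is a difference between values near those of lymphocyte-like cells. Its call was lost under 5 other settings, the UMI limits among them (-0.19, adjusted p = 0.795, edgeR).

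Igfbp5, a binding protein that is abundant in bone and attaches to extracellular matrix, was highest in MALP-like cells and varied widely between pools. The lowest, median and highest pools were at 2.67, 5.73 and 18.1 UMIs per 10000 in MALP-like cells, at 0.338, 1.26 and 5.37 in LMP-like cells and at 0.0333, 0.333 and 2.63 in OB2-like cells. MALP-like cells were above LMP-like cells of the same pool in 16 of 16 pools although the ranges overlap (log2 difference 1.86 ± 0.214, adjusted p = 5.67e-13, and 2.59 with the UMI limits). The difference between OBP-like and LMP-like cells was the largest of any member in that comparison, at -4.73 ± 0.269 (16 of 16 pools, adjusted p = 3.6e-30). It was -4.00 with doublets kept and -2.01 with the UMI limits. Without pool 7, the highest, the MALP-like mean was 5.76 ± 2.43 instead of 6.53 ± 3.87. OB1-like, Ocy-like, OBP-like and macrophage-like cells were at means of 0.0503 to 0.0682 over 16 pools. The highest of these means, that of OB1-like cells, was raised by pool 13 (0.356), beside a median of 0.0338. Lymphocyte-like cells of 10 pools had a mean of 0.067, which rests on pool 6 (0.506), and a median of 0.0215. In the same pools OBP-like, OB1-like and Ocy-like levels were above theirs in 7 of 10 each and macrophage-like levels in 8 of 10.

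Igfbp7, which encodes a secreted relative with weak affinity for IGFs, was high in both progenitor classes. The lowest, median and highest pools were at 6.61, 8.12 and 15.8 UMIs per 10000 in MALP-like cells and at 4.27, 5.79 and 9.79 in LMP-like cells. By level, MALP-like cells were above LMP-like cells in 16 of 16 pools (adjusted p = 0.000183, exact permutation test, at the smallest p that 16 pools allow). With TMM the log2 difference was 0.28 ± 0.104 (adjusted p = 0.012), which was no longer called with both runs summed (0.12, adjusted p = 0.312), with no filter on low counts (0.21, adjusted p = 0.0858), with no block for the pool (0.27, adjusted p = 0.116) or without pool 7 (0.23, adjusted p = 0.0565). Igfbp7 was lower in OBP-like than in LMP-like cells (-1.89 ± 0.108, 16 of 16 pools, adjusted p = 3.91e-30), in OB1-like than in OBP-like cells (-0.49 ± 0.11, adjusted p = 0.000106) and in Ocy-like than in OB1-like cells (-0.46 ± 0.113, adjusted p = 0.000631), of which the last 2 were not called with the UMI limits (adjusted p = 0.539 and 0.224, edgeR). It was lowest in macrophage-like cells, at 0.186 ± 0.073 and below every pool of the other classes. The lymphocyte-like cells of single pools ranged from 0.0541 to 4.29 for this gene, and the levels of OBP-like, OB1-like, OB2-like and Ocy-like cells all lie within that range. Per droplet, OBP-like (2.75) and OB2-like cells (3.03) were above lymphocyte-like cells (1.01) in 9 of 10 pools each. OB1-like (1.4), Ocy-like (0.977) and macrophage-like cells (0.0857) were above them in 7, 6 and 1 of 10. Between LMP-like and MALP-like cells the order per droplet was the reverse of that by level. The means were 10.9 and 8.43 UMIs in these 10 pools, and the medians over 16 pools were 9.83 and 7.98. LMP-like cells also held more UMIs of all genes, with a median of 16951 per cell against 8596.5.

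Igfbp2, a binding protein with affinity for both IGF1 and IGF2, was highest in LMP-like cells, few of which held a UMI of it. Thinned to 4000 UMIs, 5.5% ± 1.85 (SD over 16 pools) of LMP-like cells had an Igfbp2 UMI (unthinned 9.37%). An even spread of the same UMIs over cells (a Poisson count) would give 13.8%, and the measured share was lower in 16 of 16 pools. The lowest, median and highest pools were at 0.104, 0.329 and 0.906 UMIs per 10000 in LMP-like cells and at 0.00748, 0.0181 and 0.916 in MALP-like cells. It was lower in MALP-like cells in 15 of 16 pools (-2.5 ± 0.278, adjusted p = 1.44e-13, and -1.87 with no block) and lower in OBP-like cells in 16 of 16 (-3.15 ± 0.281, adjusted p = 3.47e-18). Pool 7 was the exception, holding 438 of the 734 Igfbp2 UMIs of MALP-like cells. Without it the MALP-like mean was 0.0547 ± 0.081 instead of 0.109 ± 0.229, and pools 3 and 11 were then the highest, at 0.273 and 0.217. Why these pools stand apart was not tested, and the mice of a pool were not separated here. Lymphocyte-like cells of 10 pools had a mean of 0.0119, from 18 UMIs with 8 pools at 0. In those pools OBP-like cells (0.0207) were above them in 8 and MALP-like cells (0.118) in 9. The sizes of both differences to LMP-like cells are thus set against low values. With the UMI limits Igfbp2 was not tested in the fit.

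Igfbp6, a binding protein with a preference for IGF2, was sparse. Its highest class mean was 0.0401 ± 0.0168 in LMP-like cells, with 735 UMIs over 10379 cells, and MALP-like cells held 31 UMIs over 8066 cells. It was lower in MALP-like than in LMP-like cells (-3.48 ± 0.337, 16 of 16 pools, adjusted p = 2.53e-16) and in OBP-like than in LMP-like cells (-1.55 ± 0.247, 16 of 16, adjusted p = 2.69e-08), and with both runs summed these were -2.71 and -0.85. Lymphocyte-like cells of 10 pools had a mean of 0.0115, from 7 UMIs with 5 pools at 0. In those pools MALP-like (0.00285) and OBP-like cells (0.00786) were above them in 3 and 5 of 10. Per droplet OBP-like cells had 0.0173 UMIs against 0.0132, higher in 7 of 10 pools. The sizes of both differences are thus set against sparse values, by level near or below those of lymphocyte-like cells. LMP-like cells (0.0378) were above them in 9 of 10. In macrophage-like against MALP-like cells, where both means were below 0.01, it was not called (0.76 ± 0.536, adjusted p = 0.179). With the UMI limits Igfbp6 was not tested in the fit.

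To compare how widely the genes were detected, each cell was thinned to 4000 UMIs, which left out 1886 of 10379 LMP-like, 1614 of 8066 MALP-like and 4481 of 10170 macrophage-like cells as too shallow. Igfbp4 had a UMI in 99.6% ± 0.285 (SD over 16 pools) of MALP-like cells and Igfbp7 in 86.6% ± 4.63, whereas Igfbp3 was detected in 50.4% ± 8.2 and Igfbp5 in 37.7% ± 12.3. Unthinned, these shares were 98.3%, 87.0%, 54.9% and 42.4%. In lymphocyte-like cells the thinned shares were 17.5% for Igfbp4, 1.12% for Igfbp3 and 1.32% for Igfbp5, and between 5.0% and 61.2% by pool for Igfbp7, at an unthinned median of 6060.5 UMIs against 9004.75 in MALP-like cells. Igf1 was detected in 67.9% ± 6.45 of macrophage-like cells (unthinned 65.4%, median 4290.25 UMIs), in 13.1% ± 3.33 of MALP-like and in 1.95% of lymphocyte-like cells.

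The share of cells with a UMI was set beside the share that the same mean number of UMIs would give if every cell of a pool and class held it evenly (a Poisson count). For Igfbp3 in MALP-like cells these were 50.4% and 91.5%, and for Igfbp5 37.7% and 91.3%. For Igfbp4 they were 99.6% and 100%, for Igfbp7 86.6% and 96.0%, and for Igf1 13.1% and 17.1%. The measured share was the lower for Igfbp3 and for Igfbp5 in 16 of 16 pools. The tenth of cells with most UMIs held 52.0% ± 7.29 of the Igfbp3, 68.0% ± 10.5 of the Igfbp5 and 21.1% ± 1.47 of the Igfbp4 UMIs of MALP-like cells. In LMP-like cells the corresponding shares with a UMI were 18.7% and 48.3% for Igfbp5, 72.8% and 98.8% for Igfbp4, and 35.1% and 37.5% for Igf1r. A pool mixes cells of 4 or 5 mice, and the part of this spread that lies between mice was not tested.

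**Figure D3:**
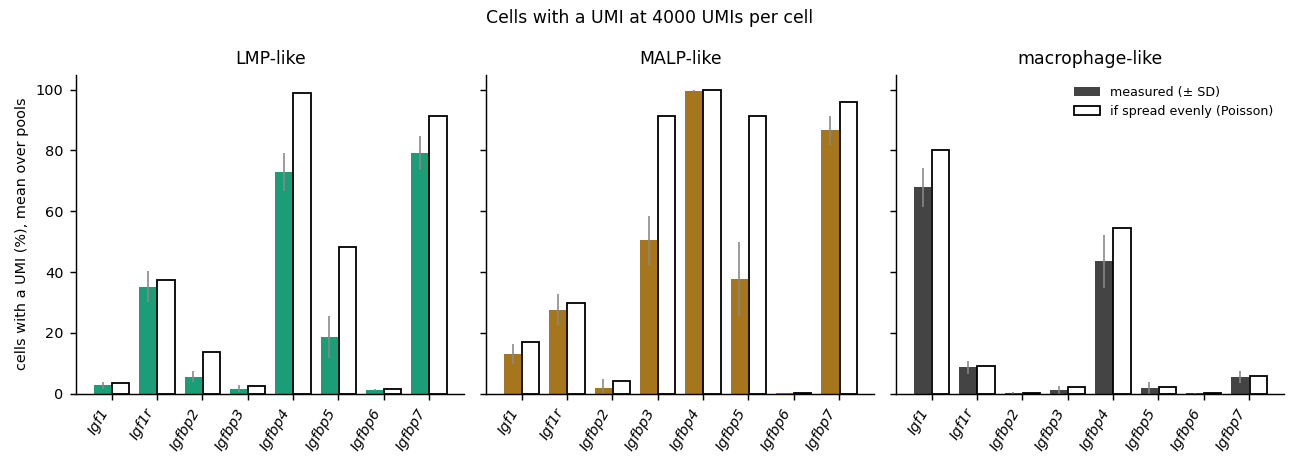
Share of cells with a UMI at 4000 UMIs per cell in LMP-like, MALP-like and macrophage-like cells, as filled bars (mean ± SD over 16 pools), beside open bars for an even (Poisson) spread of the same UMIs. The 2 bars are far apart for Igfbp3 (50.4% and 91.5%) and Igfbp5 (37.7% and 91.3%) in MALP-like cells and close for Igf1r.

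The detection of each gene was also split by that of another in the same cells, as a description over pools with no test. Among MALP-like cells with an Igfbp3 UMI, 34.0% ± 15 also had an Igfbp5 UMI, against 40.8% ± 9.72 of cells without, and the share was higher in cells with Igfbp3 in 1 of 16 pools. Igf1 was detected in 17.0% ± 4.2 of MALP-like cells with Igfbp3 and in 9.16% ± 3.17 of those without (higher with Igfbp3 in 16 of 16 pools). Igf1r was detected in 31.9% ± 7.04 of MALP-like cells with Igfbp5 and in 25.4% ± 5.25 of those without (13 of 16 pools). In LMP-like cells Igfbp5 was detected in 21.8% ± 7.99 of cells with Igfbp4 and in 10.0% ± 3.8 of cells without (16 of 16 pools).

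The levels of a gene in LMP-like and MALP-like cells of the same pool were compared over the 16 pools as log2(level + 0.01), in a family of 8 relations with p-values from 100000 permutations and Benjamini-Hochberg adjustment. For Igf1r, Pearson's r was 0.817 (p = 0.00011, adjusted 0.00088) and Spearman's rho 0.853 (p = 4e-05, adjusted 0.00032). Leaving out pools 3 and 7, which lay at the greatest distance from the median LMP-like level, gave r = 0.81, and within the 8 shallower and 8 deeper pools it was 0.883 and 0.795. For Igfbp5, r was 0.626 (permutation p = 0.0093, adjusted 0.025) and rho 0.797 (p = 0.00034, adjusted 0.0014), with r = 0.711 without pools 6 and 1 and 0.737 and 0.307 in shallower and deeper pools. For Igfbp7, r was 0.684 (permutation p = 0.0033, adjusted 0.013) and rho 0.632 (p = 0.01, adjusted 0.028), with 0.651 and 0.916 in shallower and deeper pools, but r fell to 0.393 without pools 3 and 7, so over all pools the relation rests on those 2. Without pool 7 alone, Igf1r was the one relation that passed by r (0.83, permutation p = 0.00015, adjusted 0.0012), while Igfbp5 gave r = 0.517 (adjusted p = 0.094) with rho = 0.775 (permutation, adjusted p = 0.004) and Igfbp7 gave r = 0.607 (permutation, adjusted p = 0.059). With the UMI limits, Igfbp5 gave r = 0.382 (permutation, adjusted p = 0.24) and rho = 0.159 (adjusted p = 0.64), Igfbp7 gave r = 0.44 (permutation, adjusted p = 0.18) and Igfbp4 passed (r = 0.633, permutation, adjusted p = 0.033), while Igf1r still did (r = 0.655, adjusted p = 0.029). The other 5 genes had r between 0.209 and 0.539 and adjusted p-values of 0.061 to 0.43. Of these, Igfbp3 passed with the second run (r = 0.684, permutation, adjusted p = 0.013) and with doublets kept (r = 0.7, adjusted p = 0.0073), Igf1 (r = 0.603, adjusted p = 0.027) and Igfbp4 (r = 0.58, adjusted p = 0.029) with both runs summed, and Igfbp2 without pool 13 (r = 0.58, permutation, adjusted p = 0.047). Igfbp6 changed sign with the second run (r = -0.475, permutation, adjusted p = 0.1). Both values of a point come from the same library and the same mice, which cannot be told apart here.

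**Figure D4:**
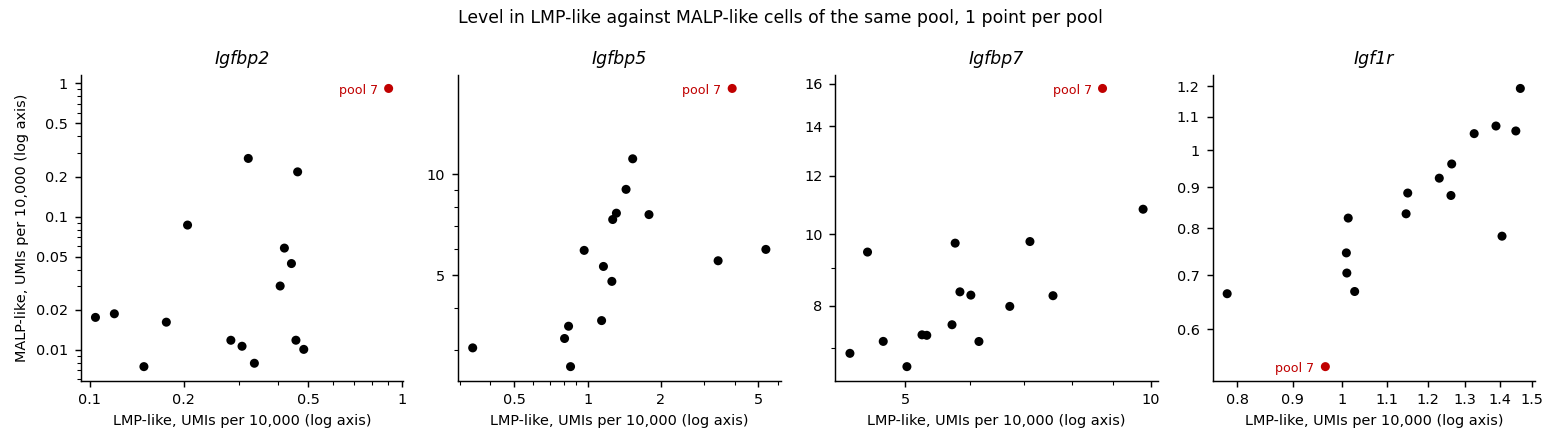
Level in LMP-like (x axis) against MALP-like cells (y axis) of the same pool for Igfbp2, Igfbp5, Igfbp7 and Igf1r, in UMIs per 10000 on log axes, with 1 point per pool and pool 7 in red. Pool 7 is the highest pool in MALP-like cells for the 3 binding proteins, and Igf1r shows the tightest relation (r = 0.817).

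The spread between pools is given beside that of counting alone, which shows only how small the counting error is. In MALP-like cells the coefficient of variation over pools was 11.8% for Igfbp4, where counting alone would give 0.666%, 25.2% for Igfbp3, 26.0% for Igfbp7 and 59.3% for Igfbp5 (counting 1.96%). In LMP-like cells it was 78.7% for Igfbp5 (counting 2.36%) and 56.4% for Igfbp2 (counting 5.33%). In macrophage-like cells it was 16.4% for Igf1 (counting 3.23%). The highest pool was 1.46 times the lowest for Igfbp4 and 6.77 times for Igfbp5 in MALP-like cells.

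Other genes of the pathway were taken from a list of 28, of which 25 were tested and 3 (Igfals, Igfbp1 and Igf2bp1) were too low. In MALP-like against LMP-like cells 17 were higher, 4 lower and 4 not called, with a median log2 difference of 0.6, beside 36.8% of all genes higher, 33.7% lower and a median of 0.03. With library size alone 19 were higher and 3 lower. Ghr, the growth hormone receptor, which induces Igf1 through STAT5, had the largest difference (3.83 ± 0.113, 16 of 16 pools, adjusted p = 4.24e-52), with 9.29 UMIs per 10000 in MALP-like and 0.572 in LMP-like cells. Stat5a was higher as well (1.34 ± 0.0923), as were Pik3r1, a regulatory subunit of PI3 kinase (1.76 ± 0.0864), and the ligand gene Igf2 (1.44 ± 0.187). Igf2 was sparse, at 0.0671 UMIs per 10000 in MALP-like (437 UMIs) and 0.0202 in LMP-like cells (356 UMIs). The stanniocalcins, which inhibit PAPP-A proteases, went opposite ways: Stc1 was higher in MALP-like cells (3.49 ± 0.189) and Stc2 lower (-2.59 ± 0.16). With the UMI limits Ghr, Stc1 and Stc2 were at 3.06, 2.38 and -1.85.

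In OBP-like against LMP-like cells 12 of the 25 were higher, 11 lower and 2 not called (median -0.08), beside 33.0% and 38.8% of all genes. The split turned with library size alone, to 6 higher and 13 lower, and Akt1 changed sign. Pappa, which encodes a protease that cuts IGF-binding proteins, was at 0.0973 UMIs per 10000 in OBP-like and 1.1 in LMP-like cells (-3.27 ± 0.139, lower in 16 of 16 pools, adjusted p = 2.39e-39, and -1.49 with the UMI limits), and its relative Pappa2 was lower by a log2 difference of -1.78 ± 0.196. Igf2 (-2.27 ± 0.251), Pik3r1 (-1.51 ± 0.0892) and Grb14, an adaptor that dampens insulin receptor signalling (-1.05 ± 0.105), were lower, and Foxo1, a transcription factor restrained by AKT, was higher (1.2 ± 0.0906). The Igf2 value rests on 56 UMIs in OBP-like cells.

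In OB1-like against OBP-like cells 13 of the 25 were higher and 4 lower, beside 24.0% and 24.9% of all genes, against 9 higher and 5 lower with library size alone, where Akt2 changed sign. Those higher by at least 1 on the log2 scale were Stc2 (1.66 ± 0.116), the protease gene Htra1 (1.33 ± 0.11), Socs2, a feedback inhibitor of growth hormone signalling (1.09 ± 0.119), and Ghr (1.0 ± 0.107), all higher in 16 of 16 pools. With the UMI limits the last 3 were not called (0.53, 0.69 and 0.49, with adjusted p = 0.138, 0.0682 and 0.158, edgeR). In Ocy-like against OB1-like cells 5 were higher and 6 lower (17.5% and 21.8% of all genes), which turned to 11 higher and 3 lower with library size alone. Among the called genes, Pappa2 was the one with a log2 difference beyond 1 in size (-2.12 ± 0.384, adjusted p = 3.19e-06). In macrophage-like against MALP-like cells 4 were higher and 17 lower (median -1.23), beside 39.9% and 44.4% of all genes, against 2 and 21 with library size alone, where Foxo3 changed sign. The lowest were Ghr (-6.26 ± 0.139), Pappa (-6.18 ± 0.195), Stc1 (-6.06 ± 0.297) and Igf2 (-5.43 ± 0.392), and with doublets kept these were -5.40, -4.52, -5.23 and -4.77. Igf2 rests on 5 UMIs in macrophage-like cells and was -4.22 with the second run. Macrophage-like cells held the highest Igf1 level beside low levels of Ghr (0.102 UMIs per 10000) and Igf1r (0.259).

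**Figure D5:**
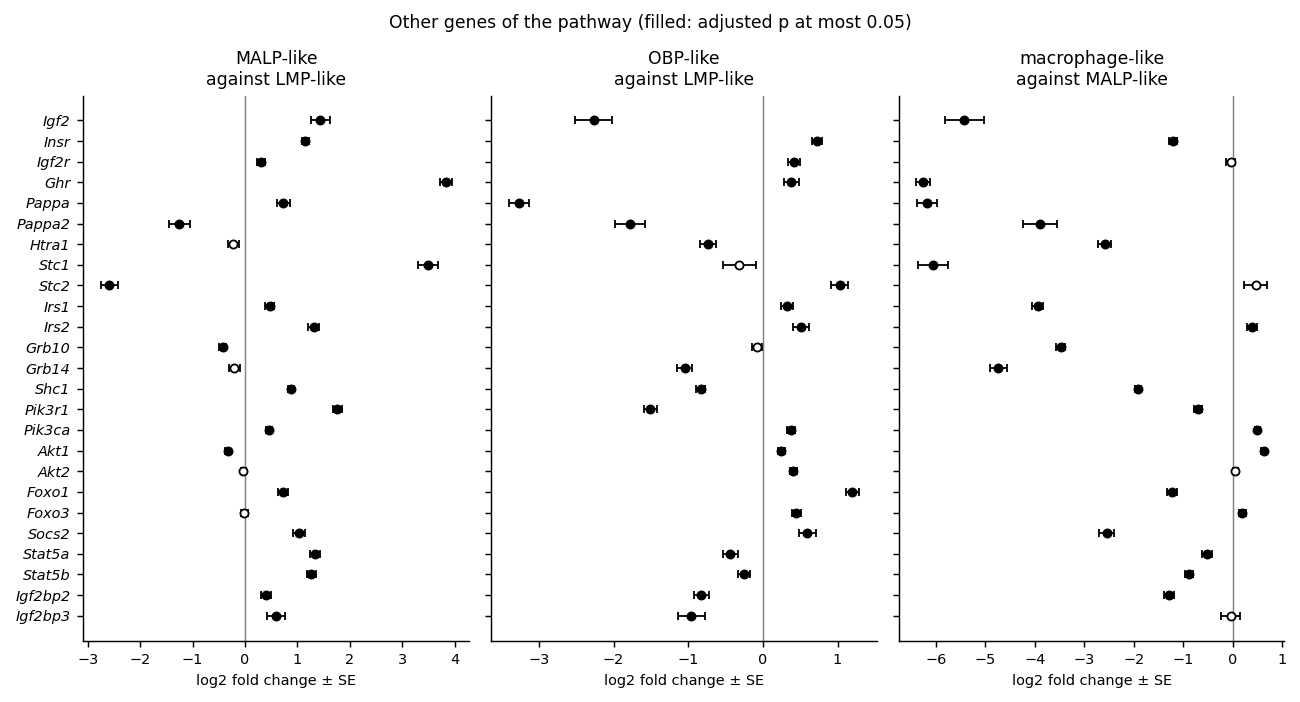
Fitted log2 fold change ± SE of the 25 tested pathway genes in 3 comparisons (edgeR, pool as a block), with filled points at an adjusted p of at most 0.05. Ghr (3.83) and Stc1 (3.49) stand highest in MALP-like against LMP-like cells and Pappa (-3.27) lowest in OBP-like against LMP-like cells.

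For each member the 3 genes with the most similar pattern were taken from 8023 genes by Pearson's r of log2 values over the 110 pool-by-class sums, as a description, since the sums share pools and libraries. Igf1 was most like Tnfaip8, Rab20 and Alcam (r = 0.982, 0.981 and 0.979). Igf1r was most like Grb10, an adaptor that binds the receptor (0.931), and Bicc1 and Kank2 (0.931 and 0.913). Igfbp3 was most like Adipoq (0.985), which is a gate marker of MALP-like cells, Kng2 and Smoc1 (0.982 and 0.981). Igfbp4 was most like Arrdc4, Prkar2b and Emc2 (0.968, 0.966 and 0.962), and Igfbp5 like 1500009L16Rik, Plxdc2 and Aoc3 (0.949, 0.948 and 0.946). Igfbp2 was most like Cnn1, Mfap5 and Pappa2 (0.842, 0.83 and 0.824) and Igfbp7 like Sgce, Arhgef25 and Lix1l (0.956, 0.956 and 0.949). For Igfbp6 the highest value was 0.634, with Prrx2.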

How the data were processed

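Single-cell RNA-seq UMI counts of 16 pools of BMSC-OBs (10x 3′ v2) were used. The authors aligned reads with Cell Ranger 5.0.0 to mm10 (GRCm38) and deposited whole-number UMI counts per gene and barcode for called cells, at a stage before they filtered cells, removed doublets or assigned each cell to a mouse. Each pool was sequenced in 2 runs, which shared 84.5% to 99.8% of barcodes (different pools 0.0545% to 0.434%), so the first run was used and each droplet counted once.

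Cells were kept with 400 to 6200 genes and at most 10% mitochondrial, 20% Rpl and 15% Rps UMIs (88909 of 107853 barcodes), and 5003 droplets were removed as doublets by scores against simulated doublets (a share of barcodes that rises with their number). Of 695 droplets with UMIs of both sexes, 47.3% were among those removed, so doublets remain. A cell was put in a class where its mean marker score was at least 0.5 and 0.25 above the next of 15 lists (84 markers), with at least 3 markers detected. These thresholds were set after the scores had been seen, and 583 to 1456 cells of each of the 7 classes compared (26 to 548 of the others, where they can be many beside the 77 to 2437 cells of a class) lay within 0.1 of the score or 0.05 of the margin. Classes were rebuilt from markers and may differ from the clusters of the study.

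Counts were summed per pool and class (at least 20 cells, 110 sums) and tested with edgeR 4.0.16 in R 4.3.3 (filterByExpr, TMM, quasi-likelihood, all 7 classes in 1 fit, pool as a block, adjusted p of 0.05). Classes of a pool share mice and library, which gives the pairing. The lowest correlation of deviations between classes of the same pool was 0.299, 0.235, 0.19, 0.13 and 0.107 in the 5 comparisons. Tested on simulated data with 200 genes changed by a log2 of 1, the fit recovered 94%, 93%, 87.5%, 87.5% and 94% of them over 11767, 11587, 11185, 11137 and 11962 genes, in the order of the report. The simulated counts held no differences between pools and no other differences between classes, so recovery in the presence of these was not tested. Neighbouring levels were compared by exact permutation of signs on log2(level + 0.01), and alternatives are in the closing section. Sequences came from RefSeq tables for GRCm38.p6 and gene positions from GENCODE M21 by gene identifier.

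The members and lists were chosen with earlier results of these data known. The motif search, the comparison with an even spread, the splits by detected gene, the scaling by library size alone and the fit without pool 7 were chosen after seeing the data. Named pathway genes were the called ones with a log2 difference of at least 1 in size, up to 6 per comparison in order of size. Intervals cover counting error only.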

Additional observations from a re-analysis of the deposited data

Results flagged for a closer look

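The values below come from cell classes that enter none of the comparisons, and each lies above the highest lymphocyte-like pool for the same gene with its whole 95% Poisson interval, which covers counting error only. Levels are UMIs per 10000 summed over the pools that held such cells. No explanation was tested.

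Igfbp3 was at 5.98 (5.58 to 6.4) in 77 endothelial-like cells of 14 pools and at 2.017 (1.75 to 2.32) in 118 glial-like cells of 15 pools, where the highest lymphocyte-like pool was at 0.2913. Without pool 9, which gave 421 of the 825 Igfbp3 UMIs of endothelial-like cells, that level was 3.688. Igfbp7 was at 10.27 (9.74 to 10.8) in endothelial-like and 16.44 (15.7 to 17.3) in glial-like cells (highest lymphocyte-like pool 4.294). Igfbp5 was at 5.73 (5.27 to 6.22) in glial-like cells (highest lymphocyte-like pool 0.5061). The MALP-like means over 16 pools were 5.85 for Igfbp3, 8.65 for Igfbp7 and 6.53 for Igfbp5.

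Igf1 was at 1.341 (1.27 to 1.42) in 1338 osteoclast-like cells, 1.315 (1.1 to 1.56) in glial-like cells and 0.2241 (0.175 to 0.282) in 390 monocyte-like cells (highest lymphocyte-like pool 0.1371). Without pool 8, which gave 41 of the 72 UMIs of monocyte-like cells, that level was 0.1119, below the highest lymphocyte-like pool, and without pool 18 it was 0.4047. Igf1r was at 1.043 (0.981 to 1.11) in 2437 granulocyte-like cells, 0.9061 (0.754 to 1.08) in endothelial-like cells, 1.124 (0.925 to 1.35) in glial-like cells and 0.845 (0.655 to 1.07) in 127 basophil- or mast-like cells (highest lymphocyte-like pool 0.6052). Igfbp6 was at 0.1245 (0.0889 to 0.17) in monocyte-like cells, from 40 UMIs (highest lymphocyte-like pool 0.02706), and at 0.0795 without pool 18, which gave 29 of them. Leaving out each pool in turn, which was chosen after seeing the data, moved no other value here by over 1.5 times.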

How the results depend on the processing

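Reading the limits of 400 and 6200 as UMIs per cell rather than genes per cell lowered every count of genes called. It keeps shallow cells and leaves out those above 6200 UMIs. The genes called were then 2886, 1830, 223, 378 and 4690 of 5939 tested in the 5 comparisons in the order of the report, against 8799, 8957, 6109, 4916 and 10522 of 12481. Fewer genes and cells enter that fit. Under the other 12 settings each of these counts stayed within 1.5 times. With these limits the order of neighbouring classes turned for Igf1 (LMP-like above OB2-like, log2 difference -1.48), Igf1r (OB2-like above LMP-like, -0.118), Igfbp6 (OBP-like above macrophage-like, -0.039) and Igfbp7 (OB2-like above OBP-like, -0.0985), as did Igf1r in Ocy-like against OB1-like cells (0.0704).

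Without the pool as a replicate block, the counts of genes called were 7819, 8078, 4893, 3822 and 10051, and the calls lost among the members were those of Igfbp7 in MALP-like against LMP-like cells (0.265), Igfbp3 in OBP-like against LMP-like cells (-0.769) and Igfbp4 in OB1-like against OBP-like cells (-0.52). It changed no other call of a member.

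Of 503 fitted member differences recomputed, 458 kept their direction and call, 19 lost and 13 gained a call, and 13 changed sign. Besides that of Igf1r, the sign changes were of values that were not called, before or after. Igfbp6 in OB1-like against OBP-like cells was -0.12 with both runs summed, -0.00659 with doublets kept, -0.162 with the second run and -0.382 with a wider gate margin. Igf1 in Ocy-like against OB1-like cells was 0.126 with DESeq2, 0.000872 with at least 50 cells, 0.254 with doublets kept, 0.146 with library size alone, 0.000903 with no filter on low counts, 0.091 with the second run, 0.289 without pool 13 and 0.0198 without pool 7. The number of genes whose LMP-like and MALP-like levels went together over pools was 3, and it was 5 with both runs summed and 1 without pool 7. The settings with library size alone and without pool 7 were chosen after seeing the data. The cause of these changes was not tested. Of the 48 neighbouring pairs 27 passed, and 18 to 26 did so under the alternatives. Of 64 recomputed shares of cells with a UMI, 16 moved by more than the spread between pools and 48 did not, and thinning to 2000 UMIs gave 40.9% for Igfbp3 and 32.7% for Igfbp5 in MALP-like cells. Depth limits the sparse values, such as Igfbp6 in MALP-like cells (counting error 82.1%), Igfbp2 in macrophage-like cells (81.9%) and Igf1 and Igfbp3 in OB1-like cells (42.1% and 39.1%).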

Other observations

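In osteoclast-like cells, a class outside the comparisons, Igfbp3 had a median of 0.0304 UMIs per 10000 over 14 pools, with 5 pools at 0 and pool 3 at 2.81. Igfbp4 ran from 0.208 to 14.0 in the same pools, with pool 4 highest, and pool 4 was also the highest for Igfbp5 (2.57) and Igfbp7 (1.54). In T-cell-like cells of 4 pools Igfbp7 ran from 1.21 to 4.57, and in B-cell-like cells of 6 pools from 0.223 to 0.807. The pools of the 2 classes are partly different, and whether these UMIs are free RNA was not tested. In macrophage-like cells, 70.7% ± 6.98 (SD over 15 pools) of cells with an Igfbp4 UMI and 65.7% ± 7.85 of cells without had an Igf1 UMI at equal depth, and the share was higher with Igfbp4 in 13 of 15 pools.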
